A study of Mus musculus with 12 samples.

Results

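The genes described here encode the proteins of the cytosolic ribosome of the mouse heart. They were chosen by symbol, as every gene named Rpl or Rps followed by a plain number with at most a trailing a, x or l, together with the stalk genes Rplp0, Rplp1 and Rplp2, and with annotated pseudogenes left out. The rule found 78 genes among the 38293 gene identifiers of each count table, 48 of the large (60S) subunit and 30 of the small (40S) subunit. Rpl24, which the rule also names, was not analysed here. RNA-seq libraries came from left ventricles of male C57Bl/6J mice aged 8 to 9 weeks, with 3 animals per group. WT IR hearts underwent 1 h of ligation of the left anterior descending coronary artery followed by reperfusion (ischaemia-reperfusion, IR), and WT sham hearts underwent the operation without ischaemia. Zeb2 cTg IR hearts carried a Zeb2 transgene in the Rosa26 locus behind a floxed stop cassette, which Cre driven by the cardiomyocyte promoter Myh6 removes, and Zeb2 WT IR hearts came from littermate controls. Both of these groups also underwent IR, so that this pair has no sham arm. Tissue was taken 14 days after IR; the labels give no day for WT sham. The sources describe the sampled tissue both as infarct with border zone and as remote zone, and the kit both as stranded mRNA and as total RNA. WT sham and WT IR are the groups of one table, and Zeb2 WT IR and Zeb2 cTg IR those of the other.

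Cytosolic ribosomes translate all messenger RNAs of the nucleus. The small subunit decodes the message, the large subunit forms peptide bonds, and nearly all of their proteins are made in equal numbers, one copy of each per ribosome. RPL3 lies near the peptidyl transferase centre, and heart and skeletal muscle replace it in part with the paralog RPL3L. RPLP0, RPLP1 and RPLP2 form the stalk that recruits translation factors, RPS6 is the classical phosphorylation target downstream of mTORC1, and free RPL5 and RPL11 restrain the p53 ligase MDM2. Messages of this family are known to open with a tract of pyrimidines (the TOP motif), through which mTORC1 and LARP1 set their translation.

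The libraries held 20215781 to 36816818 counts, of which 60.6% to 73.5% fell on genes of the mitochondrial genome, leaving 5706340 to 11618213 counts on nuclear genes. At this depth 1 CPM (counts per 1000000 counts of the library, scaled by TMM within a table) stood for 17.2 to 37.8 counts. Zeb2 itself was at 54.7, 57.8 and 67.0 CPM in Zeb2 WT IR and at 55.5, 56.9 and 58.7 CPM in Zeb2 cTg IR (log2 fold change -0.07, adjusted p = 0.75), so that the transgene was not seen as a higher Zeb2 count; the group is therefore named below only by its label. In the other table Zeb2 rose from 49.0, 49.9 and 55.9 CPM in WT sham to 59.1, 80.8 and 74.6 CPM in WT IR (log2 fold change 0.47, adjusted p = 0.0219). All 14 cardiomyocyte markers that were listed were detected in every group, at a summed level of 45412 to 68424 CPM per library.

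Sequence decides which of these genes a short read can name. Rpl3 (chr15:80077791-80091868, minus strand, GRCm38) and Rpl3l (chr17:24727820-24736143, plus strand) have coding sequences of 1212 and 1224 bases, which were identical at 74.2% of 1209 aligned positions and shared no run longer than 22 bases. The stretch from coding position 118 to 192, counted from the A of the start codon in the GENCODE M21 transcripts, is printed to show how the paralogs differ over the length of a single 75-base read; capitals mark the 14 differing bases.
Rpl3: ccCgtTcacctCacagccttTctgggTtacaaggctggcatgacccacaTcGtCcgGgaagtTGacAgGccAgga
Rpl3l: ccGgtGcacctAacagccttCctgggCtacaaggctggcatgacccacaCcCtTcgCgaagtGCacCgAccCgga
Reads of the pair can therefore be told apart. The processed copies of these genes are another matter, because most ribosomal protein genes have left many near-identical pseudogenes in the mouse genome. A window of Rpl3 (coding positions 847 to 921) occurs letter for letter in 6 annotated pseudogenes, and a window of Rps27 (coding positions 161 to 235) in 2 of them.
Rpl3: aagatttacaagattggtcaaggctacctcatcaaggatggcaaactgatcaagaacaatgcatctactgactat
Rps27: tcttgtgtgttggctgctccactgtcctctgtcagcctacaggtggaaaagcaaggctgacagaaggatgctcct
Across the transcript, 83.2% of the 75-base windows of Rpl3 and 98.5% of those of Rps27 occur in at least 1 other gene, against 0% for Rpl3l.

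The tables differed in where such reads were counted. Of the counts on the ribosomal protein genes and on 427 pseudogenes assigned to them, 24.5% to 25.8% lay on the pseudogenes in the libraries of the WT table and 0.578% to 0.906% in those of the Zeb2 table. For this comparison levels were set per 1000000 nuclear counts. Rps27 stood at 0.522 in WT IR and at 131 in Zeb2 WT IR, although both groups are injured wild-type hearts. Adding the counts of the 1 pseudogene assigned to Rps27 left it at 0.522 in WT IR, with 0% of the sum on that pseudogene. The printed window of Rps27 occurs in 3 other genes, of which 2 are pseudogenes. Reads on genes not assigned to Rps27 were not added, so where its missing reads lay was not tested. Rps13 stood at 0.547 in WT IR and at 115 in Zeb2 WT IR, and at 41.7 in WT IR once the pseudogene counts, 98.6% of the sum, were added. Rps6 stood at 1.12 and 83.2, and at 27.0 in WT IR with its pseudogenes. Genes with few shared windows had like levels in both tables: Rpl3l was at 82.0 and 77.5, and Rpl4 was at 340 in both groups. Over the 16 genes with at most 25% shared windows the median log2 ratio of Zeb2 WT IR to WT IR was 0.04 (range -1.77 to 1.83), and over the 18 genes with more than 75% it was 3.81 (up to 7.72). More than 8-fold differences were present for 22 of 78 genes, and for 11 of 78 with pseudogene counts added. Across genes this log2 ratio went with the percentage of shared windows, with a Spearman rho of 0.57 (n = 78 genes, which share libraries and are not independent) and of 0.47 with pseudogene counts added. Levels were therefore never compared between the tables, and pseudogene reads are named below where they bear on a gene.

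**Figure D1:**
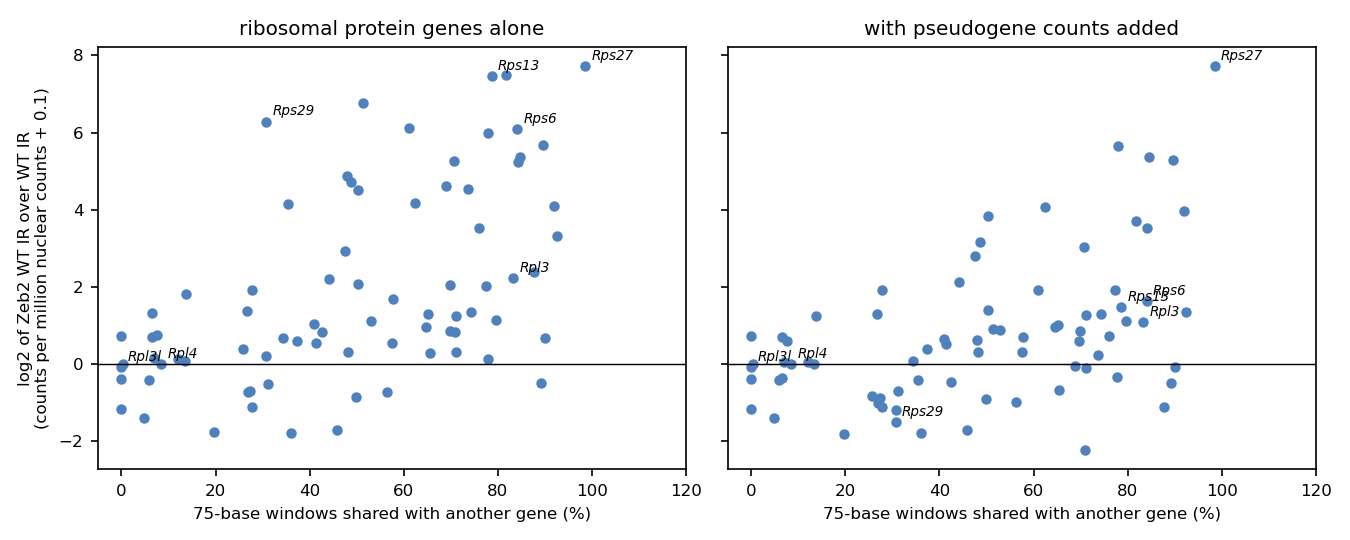
Each point is 1 of 78 ribosomal protein genes; the x axis gives the percentage of its 75-base windows that occur in another gene, and the y axis the log2 ratio of Zeb2 WT IR to WT IR in counts per 1000000 nuclear counts plus 0.1, for the gene alone (left) and with its pseudogene counts added (right). Points above a ratio of 8-fold fall from 22 to 11 when pseudogene counts are added, and Rps27 stays highest at 7.72.

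As a share of nuclear counts, the family made up 0.345%, 0.352% and 0.343% in WT sham and 0.403%, 0.407% and 0.487% in WT IR. Every WT IR library lay above every WT sham library, with means of 0.346% ± 0.00466 and 0.432% ± 0.0473 (SD, n = 3). With pseudogene counts added the means were 0.461% ± 0.00556 and 0.580% ± 0.0626. In Zeb2 WT IR the share was 0.692%, 0.607% and 0.761%, and in the libraries labelled Zeb2 cTg IR it was 0.871%, 0.720% and 0.799%, so that these groups overlapped. Their means were 0.687% ± 0.0772 and 0.796% ± 0.0754 (SD, n = 3). Within a table, levels per transcript length spread widely among genes whose products the ribosome holds mostly in equal numbers. In the WT table the highest mean levels were those of Rplp1 (141 CPM per kb), Rps15 (103 CPM per kb) and Rpl32 (95.1 CPM per kb), and the lowest among tested genes those of Rps23 (0.594 CPM per kb), Rpl11 (0.419 CPM per kb) and Rps6 (0.366 CPM per kb). Of the summed counts in WT IR, 40.4% for Rps23, 95.2% for Rpl11 and 95.8% for Rps6 lay on pseudogenes, so that these low levels hold only part of the reads. In the Zeb2 table Rps27 (121 CPM per kb), Rpl9 (107 CPM per kb) and Rpl22 (85.0 CPM per kb) stood highest, and Rpl27a (6.59 CPM per kb), Rpl35 (6.18 CPM per kb) and Rps16 (0.913 CPM per kb) lowest.

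**Figure D2:**
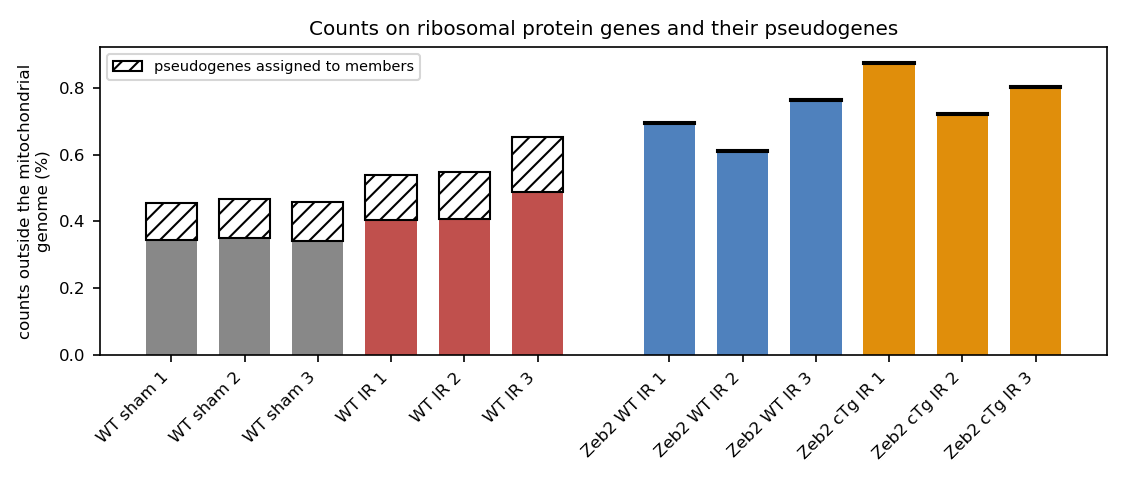
Bars give, for each of the 12 libraries, the percentage of counts outside the mitochondrial genome that fell on the 78 ribosomal protein genes (filled) and on the pseudogenes assigned to them (hatched). The hatched part is visible in the WT table (WT sham and WT IR) and is a thin line in the Zeb2 table, and each WT IR bar is taller than each WT sham bar.

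IR and sham hearts were compared to ask how the injured wild-type heart differs 14 days after IR. Most ribosomal protein messages that changed were higher in WT IR, by less than 2-fold each. By edgeR's quasi-likelihood test, adjusted over all 13756 genes tested, 29 of 69 tested ribosomal protein genes rose (11.0% of all genes did) and 3 of 69 fell (9.74% of all genes did). Levels did not overlap between the groups for 37 genes that were higher in WT IR (20.5% of all genes) and for 5 that were lower (19.3% of all genes). The median log2 fold change was 0.29 over the 69 genes and 0.0064 over all genes, and 55 of the 69 were positive. The 9 genes that the test left out for low counts were Rpl10l, Rpl39l, Rpl23a, Rpl28, Rpl38, Rps13, Rps16, Rps27 and Rps29. Both subunits took part: 16 of 43 tested genes of the large subunit rose and 2 fell (median log2 fold change 0.28), and 13 of 26 of the small subunit rose and 1 fell (median log2 fold change 0.33). Among genes with under 25% shared windows, whose counts hold the fewest doubtful reads, 10 of 14 rose and 1 fell (median log2 fold change 0.33). Of genes with 50% or more shared windows 9 of 35 rose and 1 fell (median log2 fold change 0.28). Replicate 3 of WT IR lay highest: it exceeded all WT sham libraries for 52 of 69 genes, against 44 for replicate 1 and 45 for replicate 2.

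**Figure D3:**
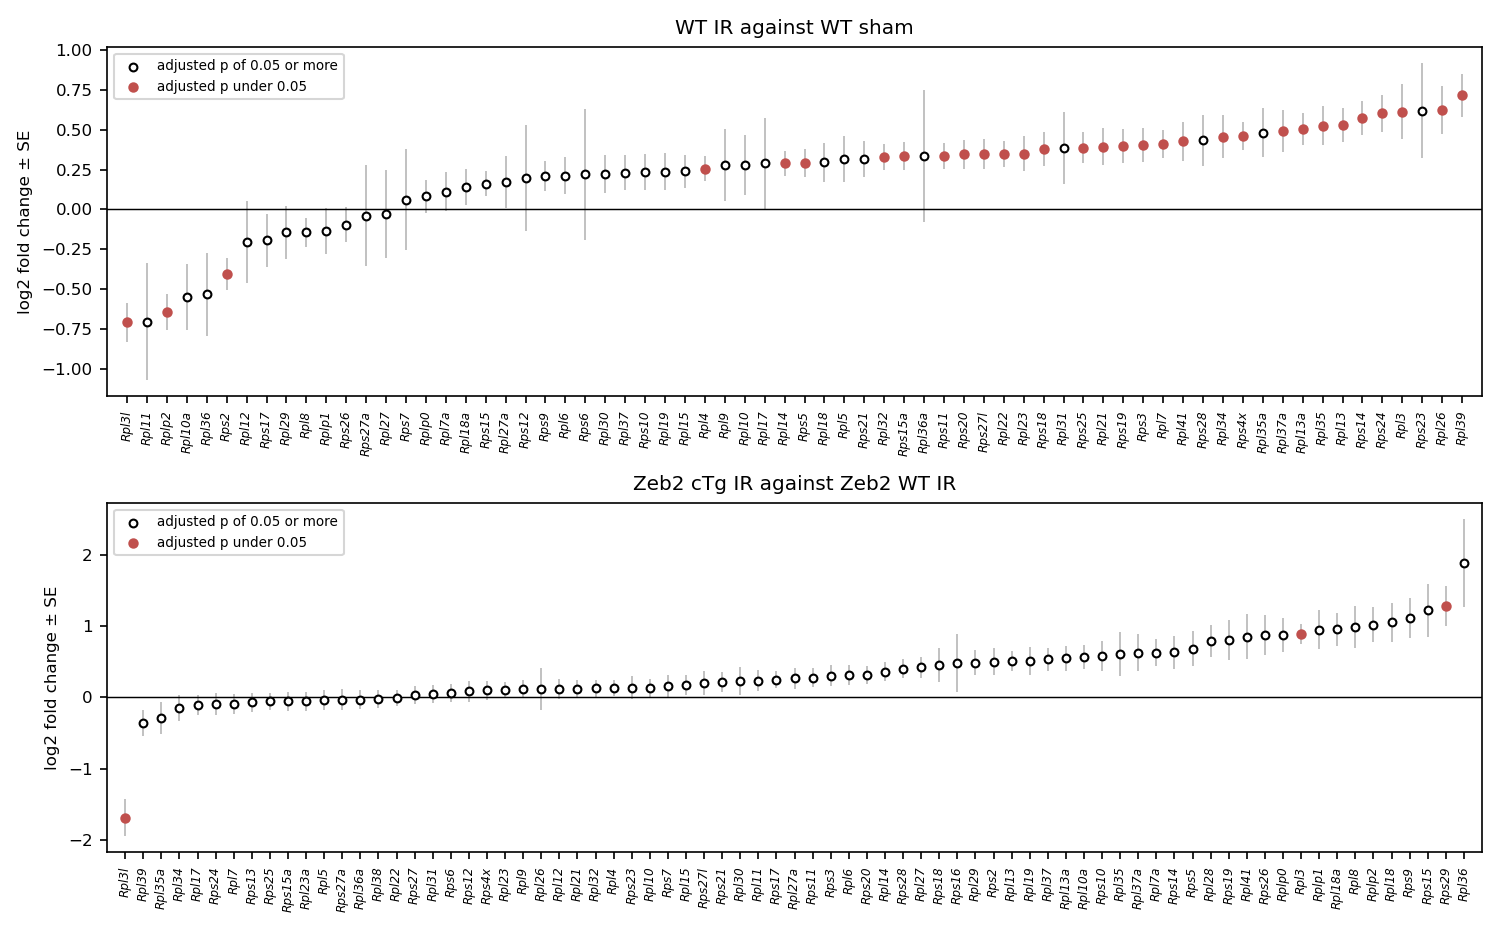
Points give the log2 fold change ± SE of the ribosomal protein genes in WT IR against WT sham (top, of 69 tested) and in Zeb2 cTg IR against Zeb2 WT IR (bottom, of 76 tested), in order of size; filled points passed an adjusted p of 0.05, and 1 gene that is not reported here is left out of both panels. In the top panel Rpl3l, Rplp2 and Rps2 passed below 0 and every other filled point lies above it, whereas in the bottom panel Rpl3 and Rps29 passed above 0 and Rpl3l below.

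The small-subunit protein gene Rps14 was at 34.0, 35.1 and 34.3 CPM in WT sham and at 46.8, 46.8 and 60.6 CPM in WT IR (log2 fold change 0.58 ± 0.11 SE, adjusted p = 0.0087). Rps4x, the X-linked gene of another 40S protein, was at 21.1, 21.4 and 20.8 CPM in WT sham and at 27.1, 27.7 and 32.4 CPM in WT IR (log2 fold change 0.46 ± 0.086 SE, adjusted p = 0.0090). Rps24 went from 10.4, 10.1 and 10.2 CPM to 13.8, 14.5 and 18.5 CPM (log2 fold change 0.60 ± 0.12 SE, adjusted p = 0.0094). In these 3 genes of the small subunit the WT sham libraries lay close together and WT IR replicate 3 stood above the other IR libraries. Rpl39, which lines the exit tunnel of the large subunit, was at 9.23, 10.5 and 11.6 CPM in WT sham and at 14.6, 16.4 and 20.5 CPM in WT IR (log2 fold change 0.72 ± 0.14 SE, adjusted p = 0.0093). Rpl13, also of the large subunit, was at 5.30, 5.24 and 4.77 CPM and at 6.97, 7.30 and 8.02 CPM (log2 fold change 0.53 ± 0.11 SE, adjusted p = 0.011). These 5 genes had the smallest p among those that rose and whose groups did not overlap. The lack of overlap was thus part of how they were chosen.

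The 3 genes that fell belong to different places of the ribosome: Rpl3l, described below with Rpl3, the stalk gene Rplp2 and the small-subunit gene Rps2. Rplp2 was at 10.5, 11.2 and 10.4 CPM in WT sham and at 7.66, 5.90 and 7.01 CPM in WT IR (log2 fold change -0.64 ± 0.11 SE, adjusted p = 0.0074). Rps2 was at 20.6, 22.6 and 23.2 CPM and at 18.8, 14.8 and 16.5 CPM (log2 fold change -0.41 ± 0.10 SE, adjusted p = 0.0216). All WT IR libraries were below all WT sham libraries in both. Of the 6 fits that left out a library, the call for Rplp2 held in 5 and that for Rps2 in 3. The other stalk genes did not pass the test, with log2 fold changes of 0.08 for Rplp0 (adjusted p = 0.60) and -0.13 for Rplp1 (adjusted p = 0.53); the latter was positive at 0.18 when libraries were scaled by cardiomyocyte markers and at 0.0297 without WT IR replicate 2. Nor did Rpl5 (0.32, adjusted p = 0.15) or Rpl11 (-0.71 ± 0.37 SE, adjusted p = 0.197), the ligands of MDM2. Rps6 was counted at only 0.19 to 0.45 CPM in the WT table and had a log2 fold change of 0.22 (adjusted p = 0.73).

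Pseudogene reads bear on the genes just named. With the counts of assigned pseudogenes added to each gene, 37 of 75 tested genes rose (11.0% of all genes did) and 3 fell, with a median log2 fold change of 0.33, and 28 of the 29 genes that rose without this addition were among the 37. Rps13, which could not be tested on its own, then had a log2 fold change of 0.60 (adjusted p = 0.0092). Rpl5 passed at 0.40 (adjusted p = 0.0145), and Rpl12, Rpl31, Rps7, Rpl9 and Rps21 also passed, at 0.54, 0.46, 0.50, 0.48 and 0.40. Rpl11 changed sign to 0.21 (adjusted p = 0.20), and Rps6 stayed short of the test at 0.25 (adjusted p = 0.105). Rps29, of which 99.6% of the summed counts in WT IR lay on pseudogenes, was at -0.10 (adjusted p = 0.41).

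Paralogs and ribosomal proteins with other names moved unevenly. Rps27l, the paralog of Rps27, was at 11.6, 11.2 and 12.6 CPM in WT sham and at 14.2, 14.3 and 16.4 CPM in WT IR (log2 fold change 0.35 ± 0.092 SE, adjusted p = 0.027). Rpl10l, an autosomal copy of the X-linked Rpl10 used in the male germ line, had 0 counts in all 12 libraries, which allows at most 3 counts in each, and Rpl39l had at most 3 counts in any. Of 8 ribosomal proteins outside the naming rule, 6 were tested and 2 rose, Rack1 (log2 fold change 0.34, adjusted p = 0.0355), which scaffolds signalling kinases on the 40S subunit, and Rps3a1 (0.37, adjusted p = 0.023). Both calls, and that for Rps27l, were lost with the GC correction (log2 fold changes of 0.26, 0.26 and 0.20) and in 5 of 6 fits that left out a library, and Rps27l also missed the threshold by DESeq2 (adjusted p = 0.058). Rpsa, the laminin receptor of the 40S subunit, was at 0.00, Rpl7l1 at -0.07, Rpl36al at -0.16 and Rpl22l1 at 0.37, none past the test; the signs of the first 3 turned under other settings. Fau, which encodes a ribosomal protein fused to a ubiquitin-like protein, had too few counts to test.

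Rpl3 and Rpl3l moved apart after injury. Rpl3l was at 41.8, 43.0 and 41.9 CPM in WT sham and at 30.8, 25.6 and 21.0 CPM in WT IR (log2 fold change -0.71 ± 0.12 SE, adjusted p = 0.0071). Rpl3 was at 4.01, 3.37 and 3.73 CPM in WT sham and at 4.41, 5.63 and 6.97 CPM in WT IR (log2 fold change 0.61 ± 0.17 SE, adjusted p = 0.035). All IR libraries were below all sham libraries for Rpl3l and above them for Rpl3. Behind these levels stood 64 to 110 Rpl3 counts per WT sham library and 141 to 213 per WT IR library, against 720 to 1402 and 563 to 987 counts of Rpl3l. The call for Rpl3 held without WT IR replicate 1 and was lost without any one of the other libraries (adjusted p up to 0.154), and that for Rpl3l was lost without WT sham replicate 2 (adjusted p = 0.050). Per transcript length, the ratio of Rpl3 to Rpl3l was 0.0976, 0.0799 and 0.0905 in WT sham and 0.145, 0.224 and 0.338 in WT IR. On the log2 scale the means were -3.49 ± 0.15 and -2.17 ± 0.61 (SD, n = 3), a difference of 1.32 or 2.50-fold (p = 0.1 by a two-sided exact permutation test, which cannot go lower with 3 against 3). The ratio needs no scaling between libraries. Pseudogenes held 52.6% to 57.9% of the summed Rpl3 counts in this table, and with them added Rpl3 had a log2 fold change of 0.63 (adjusted p = 0.0215).

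**Figure D4:**
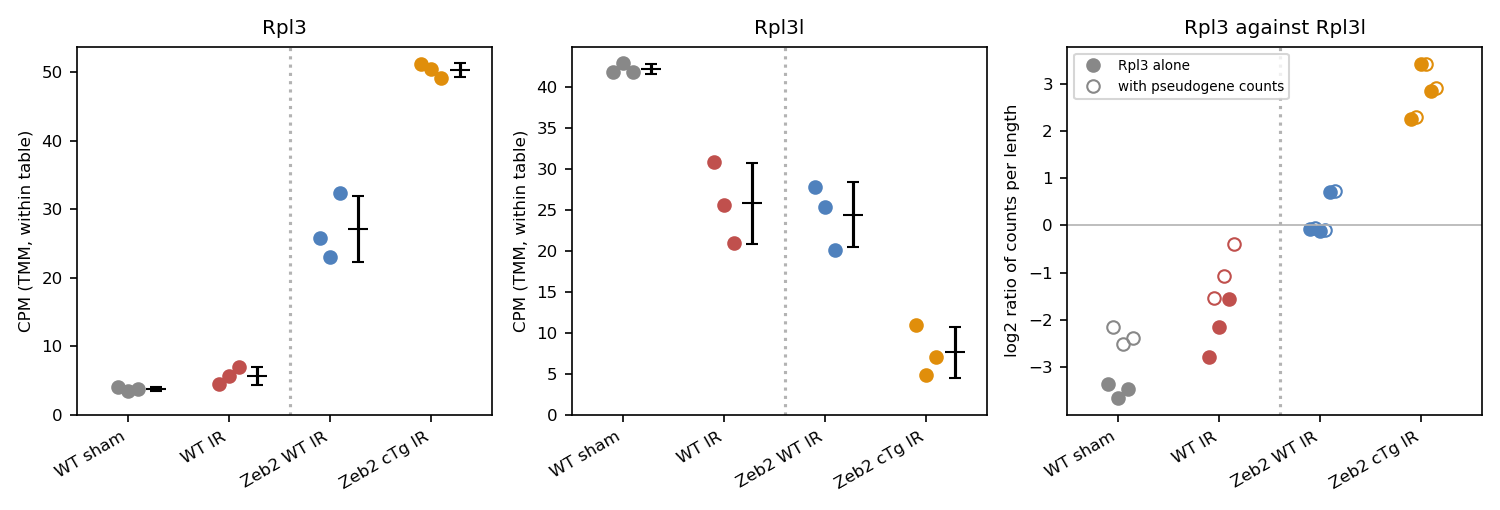
Points are libraries; the panels give CPM of Rpl3, CPM of Rpl3l (bars, mean ± SD, n = 3) and the log2 ratio of their counts per length (filled, Rpl3 alone; open, with Rpl3 pseudogene counts), and the dotted line separates the tables, whose levels are not comparable. The ratio lies between -3.65 and -3.36 in WT sham, between -2.78 and -1.56 in WT IR, between -0.12 and 0.72 in Zeb2 WT IR and between 2.25 and 3.41 in Zeb2 cTg IR.

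Cell type markers moved with these changes. Of 10 fibroblast markers 9 rose (median log2 fold change 2.01), and their summed level was 537 to 985 CPM in WT sham and 1943 to 4890 CPM in WT IR. Of 10 macrophage markers 8 rose, from a summed 159 to 177 CPM to 233 to 441 CPM. Of 14 cardiomyocyte markers 5 fell (median log2 fold change -0.24), from 58693 to 64518 CPM to 45412 to 58476 CPM. Of 6 tested smooth muscle and pericyte markers 2 rose and 1 fell, of 2 tested lymphocyte markers 1 rose, and of 8 endothelial markers none passed by edgeR, DESeq2 or limma-voom (1 higher and 3 lower at an unadjusted p under 0.05). No marker was at 0 throughout a group. The part of these markers in the ribosomal protein levels was not tested, and in such bulk tissue fewer cells of a type and less RNA per cell cannot be told apart. With size factors taken from the cardiomyocyte markers, 44 of 69 ribosomal protein genes were higher (29.1% of all genes then were) and only Rpl3l was lower (1.85% of all genes were), at a median log2 fold change of 0.61 against 0.32 for all genes. The counts of calls depended on which library was left out. Without WT sham replicate 2 only 1 of 68 tested genes passed as higher (1.64% of all genes did), at a median log2 fold change of 0.32. Without WT IR replicate 1 there were 32 (18.4% of all genes). Leaving out WT sham replicate 1 gave 5 (5.09% of all genes) and replicate 3 gave 7 (4.88%). Leaving out WT IR replicate 2 gave 9 (4.17% of all genes) and replicate 3 gave 12 (7.02%).

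The comparison of Zeb2 cTg IR with Zeb2 WT IR sets injured hearts labelled as carrying the cardiomyocyte transgene against those of littermates. Only 3 ribosomal protein genes passed the test, and 2 of them were Rpl3 and Rpl3l. Of 76 tested genes, 2 rose (2.14% of all 13018 genes did), Rpl3 and Rps29, and 1 fell (1.51% of all genes did), Rpl3l. Levels did not overlap for 22 genes with higher levels in Zeb2 cTg IR (13.4% of all genes) and for 1 gene lower (12.8% of all genes). The median log2 fold change was 0.27 over the 76 genes and 0.0059 over all genes, with 60 positive, and it was -0.03 when libraries were scaled by cardiomyocyte markers, which moved the median of all genes to -0.30. In each subunit 1 gene rose, with a median log2 fold change of 0.25 over 46 tested genes of the large subunit and 0.29 over 30 of the small subunit. Only Rpl10l and Rpl39l were left out for low counts.

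Fold changes in this table went with base composition. Over 76 ribosomal protein genes the log2 fold change had a Spearman rho of 0.63 with GC content, and over 12892 genes with a GC value the rho was 0.57; in the WT table it was -0.29 over 69 ribosomal protein genes and -0.30 over all genes. The 39 genes at or above the median GC content of the family had a median log2 fold change of 0.57 with 37 positive, and the 37 tested genes below it 0.10 with 23 positive. High-GC genes exceeded all Zeb2 WT IR libraries for 36 of 39 genes in Zeb2 cTg IR replicate 1 and for 33 in replicate 3, but for 18 in replicate 2. Their median deviation from the table's mean was 0.53, -0.13 and 0.41 (log2 of CPM plus 0.5) in Zeb2 cTg IR replicates 1, 2 and 3, against -0.15, -0.51 and -0.17 in Zeb2 WT IR. Low-GC genes had median deviations of only -0.12 to 0.11 in the libraries of this table. In high-GC genes Zeb2 cTg IR replicate 2 thus lay below the other libraries of its label, and so did Zeb2 WT IR replicate 2. Without Zeb2 WT IR replicate 2, 1 of 76 ribosomal protein genes passed as higher (0.841% of all genes did). Without Zeb2 cTg IR replicate 2, which keeps the low Zeb2 WT IR library, 32 of 76 passed as higher (12.0% of all genes did). DESeq2 on all 6 libraries called 14 as higher (5.15% of all genes), all 14 of them among those 32.

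**Figure D5:**
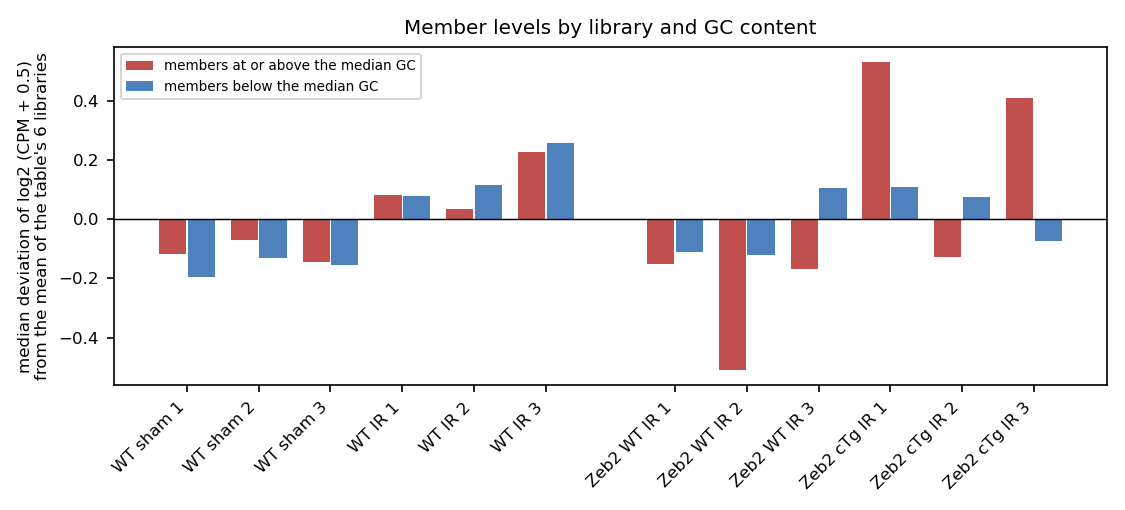
Bars give, for each of the 12 libraries, the median deviation of log2 (CPM + 0.5) from the mean of the table's 6 libraries over ribosomal protein genes at or above (red) and below (blue) the family's median GC content. In the Zeb2 table the red bars reach 0.53 and 0.41 in Zeb2 cTg IR replicates 1 and 3 and -0.13 in replicate 2, while red and blue bars go together in the WT table.

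Rpl3 was at 25.8, 23.0 and 32.4 CPM in Zeb2 WT IR and at 51.2, 50.5 and 49.2 CPM in the libraries labelled Zeb2 cTg IR (log2 fold change 0.89 ± 0.14 SE, adjusted p = 0.0137). Rpl3l was at 27.8, 25.4 and 20.1 CPM and at 10.9, 4.85 and 6.99 CPM (log2 fold change -1.69 ± 0.26 SE, adjusted p = 0.0130). Neither gene overlapped between groups, and Zeb2 cTg IR replicate 2, which stood apart in the high-GC genes, lay with its group for Rpl3 and lowest of all for Rpl3l. With a correction for GC content the log2 fold changes were 0.82 (adjusted p = 0.0064) and -2.02 (adjusted p = 0.0018). The ratio of Rpl3 to Rpl3l per transcript length was 0.944, 0.922 and 1.64 in Zeb2 WT IR and 4.76, 10.6 and 7.16 in Zeb2 cTg IR. The log2 means were 0.17 ± 0.47 and 2.83 ± 0.58 (SD, n = 3), a difference of 2.66 or 6.32-fold (p = 0.1 by the same exact permutation test). Rpl3l counts numbered 603 to 759 per library in Zeb2 WT IR and 127 to 261 in Zeb2 cTg IR. The call for Rpl3 was lost without Zeb2 cTg IR replicate 1 (adjusted p = 0.051) or replicate 3 (adjusted p = 0.054) and with scaling by cardiomyocyte markers (0.59, adjusted p = 0.25), and that for Rpl3l without replicate 3 (adjusted p = 0.063). Of 14 cardiomyocyte markers 2 rose (median log2 fold change 0.32), at a summed 64912 to 68424 CPM against 56933 to 60457 CPM. Of 10 fibroblast markers 3 fell (median log2 fold change -1.35), at a summed 544 to 672 CPM against 929 to 2126 CPM. Of 5 tested smooth muscle and pericyte markers 1 rose, and no macrophage, endothelial or lymphocyte marker passed by edgeR (10, 8 and 1 tested). At an unadjusted p under 0.05, 4 macrophage markers were higher, and 1 endothelial marker was higher and 3 were lower; DESeq2 called 1 macrophage marker higher and 1 endothelial marker in each direction, limma-voom none. The part of these markers in the values of the pair was not tested.

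Rps29, a zinc-binding protein of the 40S head, was at 14.7, 10.1 and 11.6 CPM in Zeb2 WT IR and at 38.8, 16.7 and 33.0 CPM in Zeb2 cTg IR (log2 fold change 1.28 ± 0.28 SE, adjusted p = 0.041). The groups did not overlap, yet replicate 2 of Zeb2 cTg IR lay nearer to Zeb2 WT IR than to the other libraries of its label, and the call was lost when any one library other than replicate 2 was left out. The stalk genes had the same order of libraries. Rplp0 was at 63.5, 43.1 and 56.9 CPM and at 125, 63.9 and 112 CPM (log2 fold change 0.88, adjusted p = 0.075). Rplp1 was at 23.6, 17.6 and 20.4 CPM and at 56.6, 23.6 and 39.1 CPM (log2 fold change 0.95, adjusted p = 0.081). Rplp2 was at 9.50, 7.57 and 8.43 CPM and at 21.0, 10.4 and 20.4 CPM (log2 fold change 1.02, adjusted p = 0.055). None of the 3 stalk genes passed edgeR's test with all libraries, and all 3 passed without Zeb2 cTg IR replicate 2, with log2 fold changes of 1.11, 1.21 and 1.28 and adjusted p-values of 0.0044, 0.0047 and 0.0014. With all 6 libraries, all 3 also passed by DESeq2 (adjusted p of 0.0058, 0.0067 and 0.0021) and by edgeR with the replicate block or with no filter on low counts, and Rplp2 passed with the GC correction (0.76, adjusted p = 0.034). Rpl36, a large-subunit protein, had the highest fold change of the family without passing: it was at 2.38, 0.931 and 2.00 CPM in Zeb2 WT IR and at 9.60, 1.26 and 8.96 CPM in Zeb2 cTg IR (log2 fold change 1.89 ± 0.62 SE, adjusted p = 0.113), and was named after its values were seen.

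Rps6 (log2 fold change 0.06, adjusted p = 0.80), Rpl5 (-0.04, adjusted p = 0.89), Rpl11 (0.24, adjusted p = 0.34) and Rps27l (0.20, adjusted p = 0.48) did not pass the test in this comparison, and each of these signs turned under scaling by cardiomyocyte markers or, for Rpl5, with the correction for GC content. The most abundant genes per length, Rps27 (0.03), Rpl9 (0.11) and Rpl22 (-0.01), lay near 0 with signs that turned likewise. Those of lowest level, Rpl27a (0.27, negative under scaling by cardiomyocyte markers), Rpl35 (0.61, adjusted p = 0.26) and Rps16 (0.49), did not pass either. Of the ribosomal proteins outside the naming rule Rpsa passed, at 35.8, 30.5 and 38.5 CPM in Zeb2 WT IR and at 63.6, 47.4 and 57.5 CPM in Zeb2 cTg IR (log2 fold change 0.69 ± 0.15 SE, adjusted p = 0.0374); this call was lost in 5 of 6 fits that left out a library, and under scaling by cardiomyocyte markers (0.36). The others tested, Rack1 (0.41), Rps3a1 (0.14), Fau (0.91), Rpl36al (0.36), Rpl22l1 (-0.33) and Rpl7l1 (0.11), did not pass. The signs of Rps3a1 and Rpl7l1 turned under scaling by cardiomyocyte markers. Rps4l, a copy of Rps4x that the annotation lists as a pseudogene and the rule left out, was at 0.51, 0.20 and 0.47 CPM and at 2.64, 1.07 and 3.03 CPM (log2 fold change 2.49, adjusted p = 0.024). The call for Rps4l held in only 2 of the fits that left out a library. In the WT table Rps4l was at -0.39 (adjusted p = 0.23).

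Genes that build and use ribosomes were counted from fixed lists beside the ribosomal proteins. After IR in wild-type hearts, 1 of 27 nucleolar and processing factors rose, the histone chaperone Npm1 (log2 fold change 0.41), and 1 fell, Bysl (-0.52). Of 26 large-subunit assembly factors none rose and 1 fell, Nle1 (-0.75), and of 14 genes of RNA polymerase I and rRNA transcription 1 rose, Myc (1.22, adjusted p = 0.0093). The mitochondrial ribosomal proteins, which translate the mitochondrial genome, had 33 of 76 lower and none higher, with a median log2 fold change of -0.29 where the cytosolic family had 0.29; scaled by cardiomyocyte markers, which raised the median of all genes to 0.32, 4 of 76 were lower and the medians were 0.0052 and 0.61. The elongation factors held a second pair of muscle isoforms. Eef1a1, the general form of eEF1A, was at 98.8, 86.0 and 82.4 CPM in WT sham and at 164, 193 and 272 CPM in WT IR (log2 fold change 1.24 ± 0.17 SE, adjusted p = 0.0039). Eef1a2, the form of muscle and neurons, was at 290, 293 and 259 CPM and at 226, 177 and 169 CPM (log2 fold change -0.56 ± 0.12 SE, adjusted p = 0.0141). As with Rpl3 and Rpl3l, the general form was higher and the muscle form lower in every WT IR library. Of 34 initiation factors 1 rose, Eif3e (0.36), and 3 fell (median log2 fold change 0.03), against 17 and none under scaling by cardiomyocyte markers, where 29.1% of all genes were higher and 1.85% lower. Of 17 regulators of mTORC1 and TOP messages none rose and 5 fell (3 rose and 1 fell under scaling by cardiomyocyte markers), the repressors Akt1s1 (-0.68), Eif4ebp2 (-0.66), Larp1 (-0.29, positive at 0.016 under scaling by cardiomyocyte markers) and Tsc2 (-0.34) and the mTORC1 subunit Rptor (-0.29), the last 2 named after their values were seen. In the lists of large-subunit assembly factors, mitochondrial ribosomal proteins and mTORC1 regulators, 0 genes were higher by edgeR also at an unadjusted p under 0.05, and 0 by DESeq2 or limma-voom. Of 14 factors at the nascent chain Sec61b rose (0.71), and Tpt1 (-1.24) and Naca (-0.41) fell. Several of these calls rested on single libraries. In the 6 fits that left out a library, the calls for Eef1a1, Akt1s1 and Tpt1 held in all 6 and that for Myc in 5. Those for Eef1a2, Npm1, Bysl and Nle1 held in 3, those for Eif3e and Eif4ebp2 in 2, and those for Larp1, Sec61b and Naca in 1.

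In the Zeb2 comparison few genes of these lists passed. The large-subunit methyltransferase Nop2 rose by 0.86 on the log2 scale, the polymerase I subunit Polr1e by 0.91 and the translation repressor Eif4ebp1 by 0.89, each the only one of its list (26, 14 and 17 tested) to pass; all 3 calls were lost without Zeb2 cTg IR replicate 1 or 3. Of 76 mitochondrial ribosomal proteins 3 rose, Mrpl34 (0.92), Mrps23 (0.55) and Mrpl55 (0.63), with a median log2 fold change of 0.14 (-0.18 under scaling by cardiomyocyte markers, with none past the test). The calls for Mrpl34, Mrps23 and Mrpl55 held in only 3, 1 and 1 of the fits that left out a library. No nucleolar, elongation, initiation or nascent-chain factor passed by edgeR (28, 9, 34 and 14 tested). At an unadjusted p under 0.05, 4 nucleolar, 5 elongation, 8 initiation and 0 nascent-chain factors were higher and 3 initiation factors were lower, and DESeq2 called 2 elongation factors as higher and 1 initiation factor in each direction, limma-voom none. Eef1a1 (-0.19) and Eef1a2 (0.65, adjusted p = 0.18) did not pass in this comparison, in which Rpl3 and Rpl3l did.

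The starts of these genes are shown for 4 of the 5 genes with the smallest p among those that rose after IR, for Rplp2 and Rpl3l, which fell, and for Rps6, as examples with and without a TOP-like run at the annotated start. Sequences are from RefSeq (GRCm38.p6), 15 bases before and 15 from the annotated start, and capitals mark a C followed by at least 4 pyrimidines within 5 bases of that start.
Rps6: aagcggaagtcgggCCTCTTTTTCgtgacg
Rplp2: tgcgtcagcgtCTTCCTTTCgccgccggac
Rps24: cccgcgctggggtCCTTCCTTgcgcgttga
Rpl39: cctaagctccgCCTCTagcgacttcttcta
Rps4x: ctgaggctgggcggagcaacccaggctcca
Rpl13: ttccctttcgcctgattttgattggcgttt
Rpl3l: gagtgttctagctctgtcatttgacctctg
These windows are chr4:86857353-86857382 (minus strand), chr7:141447636-141447665 (plus strand), chr14:24490663-24490692 (plus strand), chrX:37085208-37085237 (minus strand), chrX:102189377-102189406 (minus strand), chr8:123102335-123102364 (plus strand) and chr17:24727811-24727840 (plus strand). No run within 5 bases of the annotated start was present for Rps4x, Rpl13 and Rpl3l, nor for Rplp0, Rpl5 and Rpl11, which are not printed. Runs farther from that start were not counted, and the printed window of Rpl13 holds one farther upstream. The result therefore depends on where the start is annotated, and absence of a run there does not show that a message lacks a TOP motif. Promoters of 59 ribosomal protein genes could be matched, and 28 of them (47.5%) held such a run, against 5718 of 27025 genes (21.2%). After IR, 9 of 25 tested genes with the run rose and 2 fell (median log2 fold change 0.30), and 11 of 26 without it rose and 1 fell (0.30). In the Zeb2 comparison the medians were 0.24 over 28 genes with the run and 0.20 over 28 without it, and only Rpl3l, without it, passed the test among these.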

How the data were processed

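The authors deposited 2 tables of raw counts per gene, each of 6 libraries, made per the labels with single-end 75-base reads, STAR 2.4.2a and HTSeq 0.6.1 on mm10. How reads with several matches were counted is not given in the sources used here. Groups came from the sample labels. Each table was fitted on its own with edgeR 4.0.16 in R 4.3.3: TMM factors, genes kept by filterByExpr (minimum count 10, minimum total 15), quasi-likelihood test, Benjamini-Hochberg adjustment over all genes tested, threshold 0.05. P-values measure the spread between 3 animals per group. Columns of other samples were not present. Symbols, lengths, GC content and 75-base windows came from GENCODE M21 (GRCm38). Pseudogene counts were added to their members as an alternative chosen after seeing the data. The members and lists were chosen with earlier results of these data known. Named were the Rpl3 pair, stalk genes, Rps6, Rpl5, Rpl11, paralogs and differently named ribosomal proteins, the 5 changed members each way with the smallest p and no overlap, the 3 highest and lowest per length, Eef1a1 and Eef1a2, and up to 3 called genes per other list. Alternatives were DESeq2 1.42.0, limma-voom (limma 3.58.1), other scalings and filters, corrections for GC content (loess, span 0.5), the replicate block and leaving out each library. No libraries were duplicates. On simulated counts for 13756 genes of the WT comparison, 81.4% of genes changed by 1 on the log2 scale were recovered and 97.3% of those changed by 2. For the Zeb2 comparison (13018 genes) the shares were 62.7% and 98.2%. Of the genes called in these simulations at the threshold of 0.05, 8.21% in the WT comparison and 6.47% in the Zeb2 comparison had not been changed. Protein sequences were not used here. Some genes are not reported here.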

Additional observations from a re-analysis of the deposited data

How the results depend on the processing

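The number of genes called depended on the setting and on single libraries. In WT IR against WT sham 29 ribosomal protein genes rose (11.0% of all genes did). This number was 44 with scaling by cardiomyocyte markers (29.1% of all genes) and 19 with the GC correction (8.35%). It was 15 with the replicate block and GC correction together (7.85%), and 1 to 32 when a library was left out (1.64% to 18.4%). In the main fit 3 fell (9.74% of all genes). This was 1 with cardiomyocyte scaling (1.85%) and 0 to 4 with a library left out (1.41% to 17.6%). The median log2 fold change was 0.61 with cardiomyocyte scaling, 0.22 with the GC correction (with or without the block), 0.24 with the GC and length correction, and 0.24 to 0.34 with a library left out. In the Zeb2 comparison 2 rose (2.14% of all genes did). This number was 0 with cardiomyocyte scaling (0.369% of all genes), 25 with no filter on low counts (4.65%) and 14 with DESeq2 (5.15%). It was 1 with limma-voom (1.77%), 6 with the GC correction (3.53%) and 5 with the GC and length correction (3.55%). With a library left out it was 0 to 32 (0.376% to 12.0% of all genes), and 32 without Zeb2 cTg IR replicate 2. In the main fit 1 fell (1.51% of all genes), and 0 without Zeb2 cTg IR replicate 3 (0.349%). The median turned to -0.032 with cardiomyocyte scaling, was 0.16 with the GC and length correction, and was 0.21 to 0.36 with a library left out.

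The replicate block used the replicate numbers of the labels, which do not say what same-numbered libraries share. The deviations of same-numbered libraries correlated at -0.034, 0.012 and -0.015 in the WT table and at 0.134, 0.260 and -0.0425 in the Zeb2 table. Only replicate 2 of the Zeb2 table correlated best with its own number. Replicate 2 also had the lowest median deviation of high-GC genes within each group of that table (-0.51 and -0.13). Whether same-numbered libraries shared a batch was not tested. With the replicate block 23 ribosomal protein genes rose in WT IR against WT sham (10.1% of all genes did). In the Zeb2 comparison 29 rose with the block (8.94% of all genes), and 16 with the GC correction as well (3.02%). Of all genes in that comparison, 1164 were called higher with the block alone, against 278 in the main fit.

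Leaving out a library moved the log2 fold change of Rpl3 from 0.45 to 0.76 in the WT table and from 0.79 to 1.04 in the Zeb2 table, that of Rpl3l from -0.86 to -0.59 and from -2.04 to -1.46, and the log2 difference of their ratio from 1.02 to 1.63 and from 2.37 to 2.95. Rpl3 missed the threshold in the WT table with the replicate block and GC correction together (0.53, adjusted p = 0.054) and in the Zeb2 table with cardiomyocyte scaling (0.59). The cause of these losses was not tested.

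Among genes near 0, signs turned as follows. Cardiomyocyte scaling gave, in the WT table, Rplp1 0.18, Rpl36al 0.15, Rpl7l1 0.25, Eif3f 0.034, Eif4g1 0.0054 and Larp1 0.016, and in the Zeb2 table Rps6 -0.25, Rpl11 -0.097, Rps27l -0.084, Rpl7l1 -0.22, Rps3a1 -0.15, Rps27 -0.26, Rpl9 -0.18 and Rpl27a -0.049. The GC correction gave Rpsa -0.075 in the WT table, and Rpl5 0.16 and Rpl22 0.030 in the Zeb2 table. The GC and length correction gave Rpsa -0.095, Rps6 -0.029, Rpl5 0.16, Rps27 -0.13 and Rpl22 0.031. The replicate block gave Rpsa -0.0088, and with the GC correction Rpsa -0.087, Rpl5 0.17 and Rpl22 0.031. Rpsa was also -0.00063 with RLE factors, -0.0030 without mitochondrial genes and -0.0086 with limma-voom, Rpl22 was 0.0031 with no filter on low counts, and Rpl11 was 0.21 with pseudogene counts in the WT table. Leaving out a library moved Rplp1 between -0.29 and 0.030, Rpl7l1 between -0.16 and 0.0052, and Rpsa between -0.13 and 0.10 in the WT table, and Rps6 between -0.012 and 0.13, Rpl5 between -0.13 and 0.067, Rps27 between -0.045 and 0.13, and Rpl22 between -0.061 and 0.037 in the Zeb2 table.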
